A study of Mus musculus with 18 samples.

Results

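The Hox genes were taken as every probe whose platform annotation gives a symbol of the form Hoxa, Hoxb, Hoxc or Hoxd followed by a number. The rule found 38 of the 19057 genes that the array names through probes of a single symbol, and 57 of its 45281 probes. They were measured on Illumina bead arrays in male C57BL/6 primary mouse embryonic fibroblasts taken from littermate embryos of day 13.5. The cells were wild type or carried a knockout of Dusp5, and they were either untreated (0 h) or given TPA at 100 ng/ml for 1 h or 3 h. Each of the 6 groups held 3 arrays, 18 in all, and every group shared the strain, sex, stage and culture medium.

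Hox proteins are homeodomain transcription factors that give cells along the body axis their regional identity. The genes lie in 4 clusters, Hoxa on chromosome 6, Hoxb on chromosome 11, Hoxc on chromosome 15 and Hoxd on chromosome 2, and their order within a cluster follows where along the body they are active. Low paralogue numbers sit at the 3′ end of a cluster and act towards the head, and high numbers sit at the 5′ end and act towards the tail and the tips of the limbs. Fibroblasts are known to keep a Hox pattern that reflects the part of the body they were taken from. Dusp5 encodes a nuclear phosphatase of the MAP kinase ERK, and TPA is a phorbol ester that activates protein kinase C and, through it, ERK.

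The labels do not give the part of the embryo that was used, nor how many embryos or cultures stand behind the arrays of a genotype. The p-values therefore cover only the scatter among these arrays, which may be technical, and if each genotype came from 1 embryo, embryo and genotype cannot be told apart. A group treated with solvent alone is not analysed here, so TPA, solvent and time after treatment cannot be told apart either. The targeted gene Dusp5 was lower in the arrays labelled knockout. The log2 signal of its probe was 9.18, 9.21 and 9.22 in untreated wild-type arrays against 8.36, 8.28 and 8.31 in untreated knockout arrays. The knockout arrays thus kept 54.1% of the wild-type signal, and 51.1% at 1 h and 63.5% at 3 h of TPA. The probe rose with TPA in the knockout too, from a mean of 8.32 to 10.18 at 1 h and 9.94 at 3 h, above the untreated wild-type mean of 9.20. It is not known whether the probe lies within the deleted part, so its signal does not show whether the gene was disrupted in the arrays labelled knockout. Between 16675 and 18348 probes were detected per array (detection p-value below 0.05), and the correlation between arrays of a group was 0.990 to 0.995.

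Markers of the labelled cell type were present, with 12 of 13 fibroblast genes detected on all 18 arrays. The counts for other lists were 2 of 9 genes for epithelium, 1 of 9 for endothelium, 5 of 9 for macrophages and blood, 2 of 10 for nerve and glia, 2 of 9 for skeletal muscle and 2 of 7 for cartilage. Epcam of epithelium, Ptprc of white blood cells, Sox10 of glia and Myod1 of muscle were detected on no array. Other members of the same lists were detected on all 18 arrays by at least 1 probe. Among these were Krt18 of epithelium, Lyz2 of macrophages, Stmn2 of nerve cells and Acta1 of muscle. In such bulk samples, fewer cells of a type and less RNA per cell cannot be told apart.

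The culture carried RNA from all 4 Hox clusters, most fully from the Hoxb cluster and from the middle of the clusters. A gene was counted as present throughout when 1 of its probes was detected on all 18 arrays, which held for 18 of the 38 genes. They were Hoxa2, Hoxa4, Hoxa5, Hoxa7, Hoxa9 and Hoxa13, Hoxb2 to Hoxb7 without a gap and Hoxb9, Hoxc6, Hoxc9 and Hoxc10, and Hoxd8 and Hoxd10. By cluster this was 6 of 10 Hoxa genes, 7 of 10 Hoxb genes, 3 of 9 Hoxc genes and 2 of 9 Hoxd genes. A gene with more probes has more chances to be counted, and the clusters had unequal numbers of probes. By probe it was 7 of 19 for Hoxa, 8 of 15 for Hoxb, 4 of 11 for Hoxc and 2 of 12 for Hoxd. Together 36.8% of the Hox probes were detected on all 18 arrays, against 30.6% of all probes. At a detection p-value below 0.01, 14 genes were present on all 18 arrays.

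Ordered by paralogue position, 12 of the 19 genes of positions 4 to 9, which serve the trunk, were detected on every array. At positions 1 to 3, which serve the hindbrain and neck, 3 of 7 genes were, and at positions 10 to 13, which serve the lumbar region, tail and limb tips, 3 of 12 were. No array detected Hoxb1, Hoxb8, Hoxb13, Hoxc5, Hoxd1 or Hoxd3, and Hoxa6, Hoxa11, Hoxc11 and Hoxc12 were detected on 2 arrays or fewer. The remaining 10 genes were detected on part of the arrays. Among these, Hoxd9 and Hoxd13, which pattern the limb, reached 16 arrays, Hoxd4 reached 13 and Hoxc13, a gene of hair and nail, reached 10. Hoxd11 reached 7, Hoxc8 and Hoxd12 reached 5, Hoxa3 and Hoxc4 reached 4, and Hoxa10 reached 3.

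**Figure D1:**
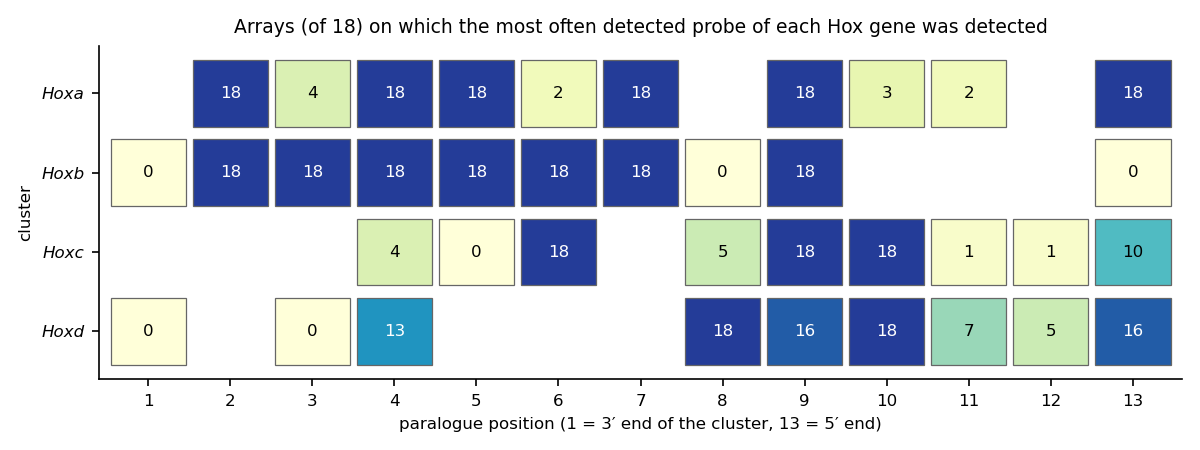
Number of the 18 arrays on which the most often detected probe of each Hox gene had a detection p-value below 0.05, with the 4 clusters as rows and the paralogue position as columns; an empty place is a position without an analysed gene. Of the 38 genes, 18 show the full 18 arrays, with an unbroken run from Hoxb2 to Hoxb7, while the 3′ and 5′ ends are mostly at low counts.

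Probes of the same gene did not always match. Of 3 Hoxa13 probes 1 was detected on all 18 arrays and the others on none, and of 4 Hoxb3 probes 1 was on all 18 arrays while the others were on 5, 2 and 0. Of 3 Hoxa9 probes 1 was on no array. Of the 57 probes, 34 passed the filter of detection on at least 3 arrays and were tested (59.6%, against 44.7% of all probes), and 21 of them were detected on all 18 arrays. On no array were 16 probes detected. Signals are log2 values after background correction and quantile normalization. On this scale the undetected Hox probes had medians from 4.23 to 4.47, and differences of probes near that level are compressed.

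Genes of the Hoxa cluster were lower in the knockout than in the wild type over the mean of the 3 times, while most tested genes of the other clusters did not pass the test. Over the mean of 0, 1 and 3 h, Hoxa2, Hoxa4, Hoxa5, Hoxa7 and Hoxa9 stood at 71.6% to 83.0% of their wild-type signal, and Hoxd10, a gene of the lumbar region and hindlimb, at 78.5%. A probe was called at a Benjamini-Hochberg adjusted p below 0.05 in limma, adjusted over all 20239 tested probes within a comparison. By this rule 11 of the 34 Hox probes were called, 1 higher and 10 lower, against 8.22% of all tested probes in either direction and 4.13% lower. Of the 10 Hoxa probes 7 were lower, of the 9 Hoxb probes 1 was higher and 2 lower, of the 7 Hoxc probes none was called, and of the 8 Hoxd probes 1 was lower. The median difference was -0.36 over the Hoxa probes, -0.12 over all Hox probes and -0.01 over all tested probes. All 10 Hoxa probes lay below 0, against 10476 of the 20239.

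Hoxa7, a gene of the thoracic region, had the smallest adjusted p of the Hox probes in this comparison. Its log2 signal in the wild type was 8.69, 8.66 and 8.52 before TPA, 8.63, 8.80 and 8.54 at 1 h, and 8.78, 8.56 and 8.60 at 3 h. In the knockout it was 8.18, 8.38 and 8.34 before TPA, 8.21, 8.19 and 8.35 at 1 h, and 7.98, 7.89 and 7.90 at 3 h. The genotypes did not overlap at any time, and the gap was widest at 3 h. The difference over the 3 times was -0.48 ± 0.06 (SE, 9 arrays a genotype, adjusted p = 1.06e-05).

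Hoxa5, which shapes the skeleton between neck and thorax and the lung, was apart between the genotypes only in the treated arrays. The wild-type arrays read 9.32, 9.29 and 9.47 before TPA, 9.53, 9.38 and 9.39 at 1 h, and 9.26, 9.35 and 9.26 at 3 h. The knockout arrays read 9.34, 9.15 and 9.27 before TPA, 9.03, 8.92 and 9.07 at 1 h, and 8.53, 8.73 and 8.75 at 3 h. The groups overlapped before TPA and did not at 1 h or 3 h. The mean difference of -0.39 ± 0.06 (SE, adjusted p = 9.69e-05) thus joined -0.11 before TPA with -0.62 at 3 h.

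The promoters of Hoxa5 and Hoxa7 are shown because the calls of this pair, at 3 h and over the 3 times, held in every alternative that leaves out an array. Each is the 250 bases before the RefSeq start (GRCm38.p6), 5′ to 3′ on the gene's strand, with CpG pairs in capitals, since CpG-rich Hox promoters are known sites of Polycomb control. Hoxa5 lies at chr6:52204588-52204837 on the minus strand and Hoxa7 at chr6:52218574-52218823 on the minus strand.
Hoxa5: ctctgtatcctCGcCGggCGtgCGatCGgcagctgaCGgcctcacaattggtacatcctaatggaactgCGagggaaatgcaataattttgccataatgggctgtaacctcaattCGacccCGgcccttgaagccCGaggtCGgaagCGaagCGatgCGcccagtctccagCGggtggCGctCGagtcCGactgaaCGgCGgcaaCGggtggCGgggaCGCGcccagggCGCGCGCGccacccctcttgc
Hoxa7: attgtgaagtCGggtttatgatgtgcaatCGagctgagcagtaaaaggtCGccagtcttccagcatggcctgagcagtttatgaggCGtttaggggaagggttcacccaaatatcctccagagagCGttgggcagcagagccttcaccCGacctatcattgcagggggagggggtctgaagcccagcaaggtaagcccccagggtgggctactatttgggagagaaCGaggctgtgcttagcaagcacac
The Hoxa5 window held 28 CpG pairs and the Hoxa7 window 7, where the median over all 32851 windows of this length in the table was 6. The 24 windows of the 22 Hox genes in the table ranged from 2 to 35, with a median of 12.5.

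Hoxa2, which patterns the second pharyngeal arch, was read by 2 probes near background that differed in timing. On probe ILMN_2874270 the wild type gave 5.43, 5.27 and 5.53 before TPA, 5.45, 5.15 and 5.26 at 1 h, and 4.95, 5.12 and 5.34 at 3 h. The knockout gave 4.70, 4.89 and 5.14 before TPA, 4.96, 4.66 and 4.90 at 1 h, and 4.65, 4.65 and 4.99 at 3 h, and this probe was detected on 2 of 3 knockout arrays at 1 h and at 3 h. The genotypes were apart before TPA and at 1 h and overlapped at 3 h, and the mean difference was -0.44 ± 0.08 (SE, adjusted p = 0.000883). On probe ILMN_2618302 the wild type gave 5.28, 5.33 and 5.28 before TPA, 5.37, 5.28 and 5.11 at 1 h, and 5.06, 5.64 and 5.37 at 3 h. The knockout gave 5.28, 5.49 and 5.08 before TPA, 4.96, 5.28 and 4.95 at 1 h, and 4.76, 4.65 and 4.85 at 3 h. Here the genotypes overlapped before TPA and were apart only at 3 h, and the mean difference was -0.27 (adjusted p = 0.0368).

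Hoxa4, which acts in the cervical vertebrae, lay lower at each of the 3 times. The wild-type signal was 5.27, 5.52 and 5.47 before TPA, 5.62, 5.73 and 5.64 at 1 h, and 5.42, 5.46 and 5.52 at 3 h. The knockout signal was 4.87, 4.96 and 5.18 before TPA, 5.21, 5.02 and 5.23 at 1 h, and 4.89, 5.23 and 5.06 at 3 h. No knockout array reached the wild-type range at any time, and the mean difference was -0.45 ± 0.06 (SE, adjusted p = 7.56e-05).

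Hoxa9, known for its part in blood progenitors and leukaemia, was read by 2 tested probes. On probe ILMN_2645155 the wild type read 5.74, 5.40 and 5.32 before TPA, 5.33, 5.61 and 5.49 at 1 h, and 5.51, 5.47 and 5.49 at 3 h. The knockout read 5.03, 5.26 and 5.20 before TPA, 4.84, 4.81 and 5.29 at 1 h, and 4.82, 5.05 and 4.87 at 3 h. The genotypes did not overlap at any time, with a mean difference of -0.47 ± 0.08 (SE, adjusted p = 0.000364). On probe ILMN_1258462 the wild type read 5.06, 5.36 and 5.29 before TPA, 5.30, 5.58 and 5.57 at 1 h, and 5.43, 5.49 and 5.46 at 3 h. The knockout read 5.27, 4.81 and 5.27 before TPA, 4.91, 5.56 and 4.83 at 1 h, and 5.01, 4.67 and 5.13 at 3 h. These values overlapped before TPA and at 1 h, and the mean difference was -0.34 (adjusted p = 0.0298).

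Hoxa13, the digit and genital tract gene at the 5′ end of the cluster, was the Hoxa gene on all 18 arrays that was not called. Its difference was -0.01, with a 95% interval from -0.20 to 0.19. Hoxa3 and Hoxa10, each detected on 4 arrays or fewer, differed by -0.13 and -0.11 and were not called.

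**Figure D2:**
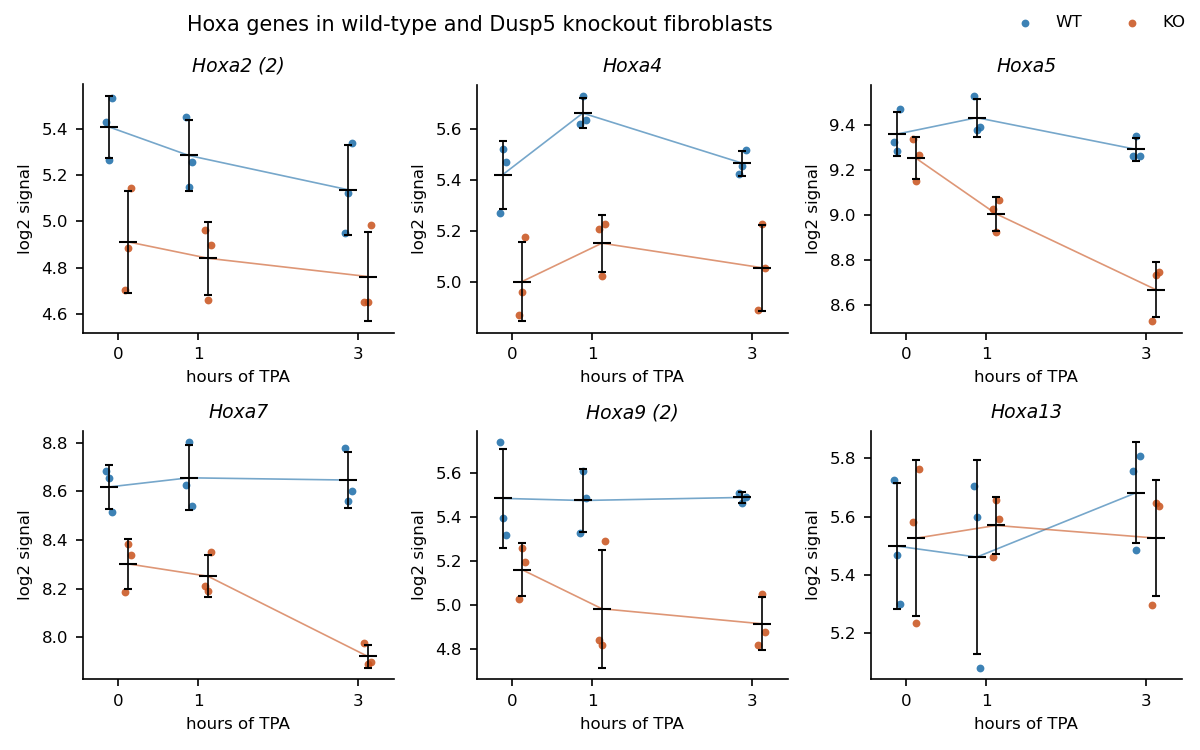
Log2 signal of 1 probe of each of the 6 Hoxa genes present on all 18 arrays, against hours of TPA, with 1 point per array, a bar at the mean of 3 arrays and whiskers of 1 SD; each panel has its own vertical scale that does not start at 0, and (2) marks the second of 2 tested probes. The knockout points lie below the wild-type points at all 3 times for Hoxa4, Hoxa7 and Hoxa9, part from them after TPA for Hoxa5, and mix with them for Hoxa13.

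Hoxd10, Hoxb7 and Hoxb2 were also called over the mean of the times. Hoxd10 gave 6.60, 6.63 and 6.83 before TPA, 6.67, 6.58 and 6.67 at 1 h, and 6.33, 6.31 and 6.15 at 3 h in the wild type. In the knockout it gave 6.49, 6.31 and 6.47 before TPA, 6.26, 6.34 and 6.46 at 1 h, and 5.85, 5.66 and 5.79 at 3 h. The genotypes did not overlap at any time, and the difference was -0.35 ± 0.06 (SE, adjusted p = 0.000401).

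Hoxb7, a trunk gene also active in the ureteric bud, was lower on both of its probes by less. Probe ILMN_2946183 gave 9.07, 9.05 and 8.78 before TPA, 9.0, 8.88 and 8.87 at 1 h, and 8.96, 8.96 and 9.17 at 3 h in the wild type. It gave 8.87, 9.01 and 8.83 before TPA, 8.78, 8.70 and 8.68 at 1 h, and 8.64, 8.75 and 8.74 at 3 h in the knockout. Probe ILMN_2946184 gave 7.55, 7.68 and 7.86 before TPA, 7.66, 7.44 and 7.90 at 1 h, and 7.49, 7.82 and 7.59 at 3 h in the wild type. It gave 7.64, 7.42 and 7.42 before TPA, 7.50, 7.37 and 7.56 at 1 h, and 7.35, 7.16 and 7.33 at 3 h in the knockout. The genotypes overlapped before TPA on both probes and were apart on both at 3 h, and the mean differences were -0.20 (adjusted p = 0.0422) and -0.25 (adjusted p = 0.0332).

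Hoxb2, a gene of the hindbrain, was the Hox gene called higher in the knockout. Its wild-type signal was 7.68, 7.40 and 7.39 before TPA, 8.04, 8.15 and 8.05 at 1 h, and 7.90, 8.18 and 7.99 at 3 h. Its knockout signal was 7.71, 8.34 and 7.82 before TPA, 8.12, 8.29 and 8.26 at 1 h, and 8.22, 8.34 and 8.12 at 3 h, and the second untreated array stood above the other two. The genotypes were apart before TPA and overlapped at 1 h and 3 h, and the mean difference was 0.27 ± 0.08 (SE, adjusted p = 0.0346).

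**Figure D3:**
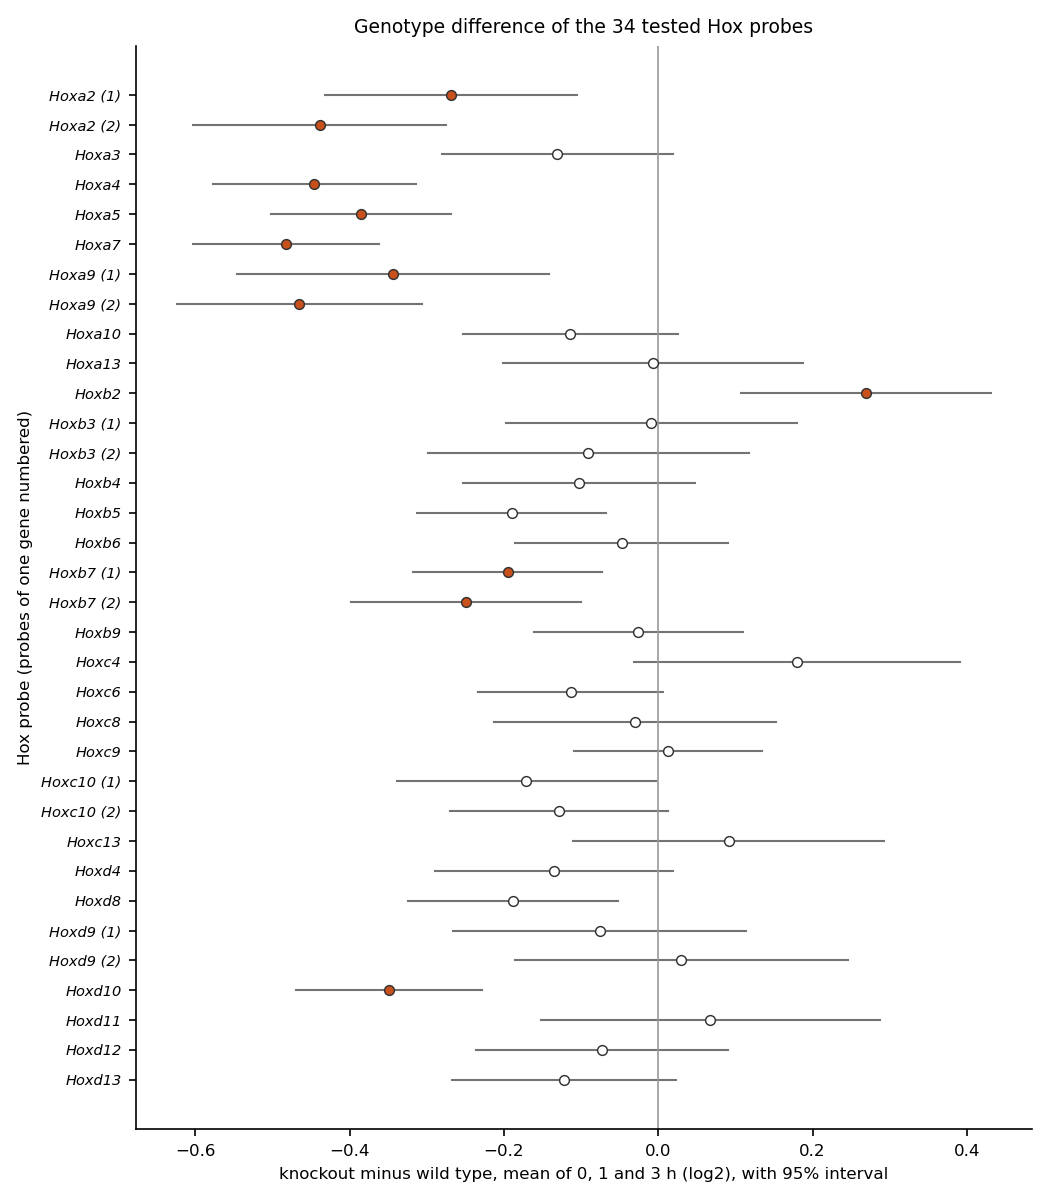
Knockout minus wild type over the mean of 0, 1 and 3 h (log2) for each of the 34 tested Hox probes in cluster order, with 95% intervals; filled points are called at adjusted p below 0.05 over all tested probes. The 7 called Hoxa probes belong to genes from Hoxa2 to Hoxa9 and lie between -0.48 and -0.27. The Hoxa3 point among them is open, as are all 7 Hoxc points.

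Time by time, fewer Hox probes were called. Before TPA none was, where 1.16% of all probes were called. An unadjusted p under 0.05 was found for 8 Hox probes, and the share of all probes under that cut is not given here. Hoxa4, at -0.42, was called before TPA when the test took 1 probe a gene (adjusted p = 0.0467) or only probes detected on all 18 arrays (adjusted p = 0.0365). It was also called with the mean of a gene's probes (adjusted p = 0.0351) or with array weights (adjusted p = 0.0204). Hoxa7 was called with no background correction (adjusted p = 0.0387) and on the deposited log2 values, which lie close to that setting (adjusted p = 0.0392). Hoxb2, higher at 0.46, was called with an intensity trend in the variance (adjusted p = 0.0396). At 1 h 3 were lower and none higher, against 1.29% of all probes, 0.588% lower. These were Hoxa4 at -0.51 (adjusted p = 0.0202), Hoxa5 at -0.43 (adjusted p = 0.0283) and Hoxa7 at -0.41 (adjusted p = 0.0491). At 3 h 6 were lower and none higher, against 3.11% of all probes, 1.41% lower. These were Hoxa7 at 60.5% of the wild type (-0.73 ± 0.10 SE, adjusted p = 0.000155), Hoxa5 at 65% (-0.62 ± 0.10 SE, adjusted p = 0.000563) and Hoxd10 at 70.8% (-0.50 ± 0.10 SE, adjusted p = 0.0061). The others were a probe each of Hoxa2 at -0.60, Hoxa9 at -0.58 and Hoxa4 at -0.41. These comparisons share their arrays with the mean over the times and are no further samples.

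The calls held unevenly. With each array left out in turn, 6 of the 11 calls over the mean of times held every time (Hoxa2 on probe ILMN_2874270, Hoxa4, Hoxa5, Hoxa7, Hoxa9 on probe ILMN_2645155 and Hoxd10), as did Hoxa5, Hoxa7 and Hoxd10 at 3 h, and none of the 3 at 1 h. The 11 calls fell to 6 without wild-type 0 h replicate 2, and to 7 without wild-type 0 h replicate 3, 1 h replicate 1 or 1 h replicate 3, or without knockout 1 h replicate 3 or 3 h replicate 2. The 6 calls at 3 h fell to 3 without wild-type 3 h replicate 3. The 3 calls at 1 h fell to 0 without any 1 of the wild-type 1 h arrays or without knockout 1 h replicate 2, and to 1 without knockout 1 h replicate 1. With no background correction the differences over the 3 times of the probes near background shrank, with Hoxa4 at -0.14, Hoxa9 at -0.15 and -0.10, and Hoxa2 at -0.13 and -0.08, while Hoxa5 stood at -0.33 and Hoxa7 at -0.38. There the calls of Hoxa2 probe ILMN_2618302 (adjusted p = 0.102) and Hoxa9 probe ILMN_1258462 (adjusted p = 0.0586) were lost. At 3 h the same setting called 5 Hox probes lower in the knockout. Among them were Hoxb5 (-0.21, adjusted p = 0.0427) and a probe of Hoxb7 (-0.27, adjusted p = 0.0230), which the main setting did not call at 3 h. Part of the 6 calls at 3 h was thus lost, although the totals were close. With arrays scaled on the median of all probes, the median of all tested probes moved by -0.14. Relative to that shift the called Hoxa probes stood between -0.55 and -0.22. Hoxb2 stood at 0.04 before allowing for the shift and was no longer called. Its call was also lost with arrays scaled on the median of the kept probes and with no detection filter.

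Array-wide measures moved with genotype too. In untreated arrays 17889 to 18348 probes were detected in the wild type and 17308 to 17489 in the knockout, and at 1 h the mean raw intensity was 277 to 286 against 236 to 259. Hox probes detected per array numbered 30 to 32, 27 to 30 and 27 to 28 in the wild type at 0, 1 and 3 h, and 27 to 30, 25 to 29 and 26 to 27 in the knockout. The summed raw intensity of the macrophage and blood markers was 2904 to 3227 in untreated wild-type arrays and 2366 to 2837 in untreated knockout arrays, with overall shifts of the arrays not removed from these sums. In the normalized values no macrophage or blood marker was called between genotypes at 0, 1 or 3 h, and the median of that list was -0.08, 0.08 and 0.01. The summed raw intensity of the cartilage markers at 3 h was 5157 to 5881 against 6015 to 7844. The summed fibroblast markers at 1 h were 31291 to 31970 against 26384 to 28335. Over the mean of the times, 2 of 5 tested cartilage genes were higher in the knockout, Col2a1 by 0.28 to 0.43 on 3 probes and Sox9 by 0.26 and 0.43 on 2 probes. By probe this was 5 of 11, or 45.5%, against 8.22% of all probes called in this comparison. Of 3 tested skeletal muscle genes, read by 3 probes, Acta1 was higher, at 0.27, and Des lower, at -0.37. Of 13 tested fibroblast genes Fn1 was higher by 0.26 to 0.40 on 3 of 4 probes and Pdgfra lower, at -0.38. By probe this was 4 of 21, or 19%, against the same 8.22%. No marker of epithelium, endothelium, macrophages and blood or nerve and glia was called in that comparison. The part of these measures in the Hox differences was not tested.

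At 3 h of TPA, as the mean of both genotypes, Hoxc6 and genes of the Hoxd cluster fell and Hoxb2 and Hoxb6 rose. Of the 34 Hox probes 2 were higher and 7 lower. The 9 called were 26.5% of the Hox probes against 21.3% of all probes called at this time in either direction. The higher ones were 5.88% against 9.85% of all probes, and the lower ones 20.6% against 11.4%. The median was -0.14 over the Hox probes and 0.00 over all tested probes. By cluster, 1 of 10 Hoxa probes, 2 of 9 Hoxb probes, 1 of 7 Hoxc probes and 3 of 8 Hoxd probes were lower, and all 8 Hoxd probes lay below 0. Markers of other cell types moved in the same comparison. The cartilage marker Sox9 was higher by 2.25 and 2.46 on its 2 probes, while none of the other 4 tested cartilage genes was called and the median over the 11 cartilage probes was 0.02. The summed raw intensity of the cartilage markers, of which 1 Sox9 probe is the brightest, went from 3325 to 3792 in untreated wild-type arrays to 5157 to 5881 at 3 h. Cd14 and Fcer1g of macrophages were higher, at 0.57 and 0.55, as were Krt18 of epithelium at 0.64, Esam of endothelium at 0.40, and Nefm and Sox2 of nerve cells at 0.31 and 0.34. Of the fibroblast markers Pdgfra was higher at 0.83, Pdgfrb at 0.33 and Dcn at 0.34 and 0.26 on 2 probes, and no marker of any list was lower. The part of these moves in the Hox changes was not tested.

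Hoxc6, a gene of the forelimb level of the trunk, had the largest fall of the called Hox probes. Its wild-type signal was 10.24, 10.36 and 10.44 before TPA, 10.15, 10.01 and 10.16 at 1 h, and 10.03, 9.78 and 9.82 at 3 h. Its knockout signal was 10.36, 10.19 and 10.33 before TPA, 10.06, 10.07 and 10.09 at 1 h, and 9.76, 9.52 and 9.58 at 3 h. In both genotypes all arrays at 1 h and at 3 h lay below all untreated arrays. The mean response was -0.57 ± 0.07 (SE, adjusted p = 2.46e-06), a fall to 67.4%, with -0.47 in the wild type and -0.67 in the knockout, both called.

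Hoxd10, given above array by array, fell to 68.8% (-0.54 ± 0.07 SE, adjusted p = 5.31e-06). The response was -0.42 in the wild type and -0.66 in the knockout, both called, and its 1 h arrays overlapped the untreated ones. Hoxd8, of the middle of the Hoxd cluster, gave 6.75, 6.81 and 6.76 before TPA, 6.70, 6.89 and 6.89 at 1 h, and 6.22, 6.36 and 6.33 at 3 h in the wild type. In the knockout it gave 6.56, 6.76 and 6.48 before TPA, 6.68, 6.42 and 6.54 at 1 h, and 5.96, 6.23 and 6.39 at 3 h. The 3 h arrays lay below the untreated arrays in both genotypes and the 1 h arrays overlapped them, with a mean response of -0.44 ± 0.08 (SE, adjusted p = 0.000312).

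The promoters of Hoxd8 and Hoxd10 are shown since this pair of genes of 1 cluster fell together in both genotypes. They are again the 250 bases before the RefSeq start (GRCm38.p6) with CpG pairs in capitals, Hoxd8 at chr2:74704365-74704614 and Hoxd10 at chr2:74691641-74691890, both on the plus strand.
Hoxd8: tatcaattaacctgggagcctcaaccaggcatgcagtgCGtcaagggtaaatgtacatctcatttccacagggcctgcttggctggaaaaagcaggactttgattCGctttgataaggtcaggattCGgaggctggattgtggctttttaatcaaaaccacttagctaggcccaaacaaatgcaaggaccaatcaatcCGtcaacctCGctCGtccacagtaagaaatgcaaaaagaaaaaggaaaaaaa
Hoxd10: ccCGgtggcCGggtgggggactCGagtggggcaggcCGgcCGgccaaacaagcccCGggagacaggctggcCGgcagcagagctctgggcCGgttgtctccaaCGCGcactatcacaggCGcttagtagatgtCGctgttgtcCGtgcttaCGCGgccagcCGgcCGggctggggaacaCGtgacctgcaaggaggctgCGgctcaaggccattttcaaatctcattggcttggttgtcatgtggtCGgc
The Hoxd8 window held 6 CpG pairs and the Hoxd10 window 20. None of the 4 printed windows held, on either strand, the AP-1 motif TGANTCA (in 6.75% of all windows), the cyclic AMP response motif TGACGTCA (1.55%), the EGR motif GCGNGGGCG (4.70%), the Hox-Pbx motif TGATNNAT (7.68%) or the TATA motif TATAAA (12.4%). This says only that these letters are not in these windows.

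Hoxd13, the digit gene at the 5′ end of its cluster, read 5.39, 5.24 and 4.96 before TPA, 5.07, 5.17 and 5.26 at 1 h, and 5.03, 5.29 and 4.99 at 3 h in the wild type. In the knockout it read 5.06, 5.33 and 5.20 before TPA, 5.32, 5.18 and 5.18 at 1 h, and 4.67, 4.54 and 4.81 at 3 h. The 3 knockout arrays at 3 h lay below all others, and only 1 of them detected the probe. The response was -0.53 in the knockout (adjusted p = 0.00408), -0.09 in the wild type (adjusted p = 0.694) and -0.31 as the mean (adjusted p = 0.0114).

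Hoxb4, known for expanding blood stem cells, gave 7.84, 7.91 and 7.63 before TPA, 7.66, 7.79 and 7.57 at 1 h, and 7.46, 7.63 and 7.75 at 3 h in the wild type. In the knockout it gave 7.52, 7.84 and 7.88 before TPA, 7.83, 7.50 and 7.68 at 1 h, and 7.18, 7.48 and 7.40 at 3 h. Its 3 h arrays lay below the untreated ones in the knockout and overlapped them in the wild type, and the mean response was -0.29 (adjusted p = 0.0231). Hoxb9, which helps shape the first ribs, had a mean response of -0.23 (adjusted p = 0.0482), and Hoxa5 had one of -0.33 (adjusted p = 0.00122). Hoxa7 and Hoxc9 were not called as the mean of the genotypes in the main setting. Both were called lower with no background correction (adjusted p = 0.0379 and 0.0336) and with array weights (adjusted p = 0.0384 and 0.0347).

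The 2 genes that rose belong to the Hoxb cluster. Hoxb2, given above, rose to 132% of its untreated signal at 3 h (0.40 ± 0.10 SE, adjusted p = 0.00368). It rose by 0.53 in the wild type (adjusted p = 0.0111), where no treated array fell within the untreated range, and the difference of 0.27 in the knockout was not called (adjusted p = 0.221). Hoxb6, a gene of the trunk and limb bud mesoderm, gave 6.36, 6.15 and 6.05 before TPA, 6.40, 6.50 and 6.06 at 1 h, and 6.67, 6.49 and 6.62 at 3 h in the wild type. In the knockout it gave 6.18, 6.09 and 6.15 before TPA, 6.25, 6.42 and 6.32 at 1 h, and 6.59, 6.40 and 6.47 at 3 h. The 3 h arrays lay above the untreated ones in both genotypes, and the mean rise was 0.38 ± 0.08 (SE, adjusted p = 0.00152). With arrays scaled on the median of all probes, which moved the median of all tested probes by -0.19, Hoxb2 at 0.10 and Hoxb6 at 0.11 were no longer called, and relative to that shift they stood at 0.30 each.

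**Figure D4:**
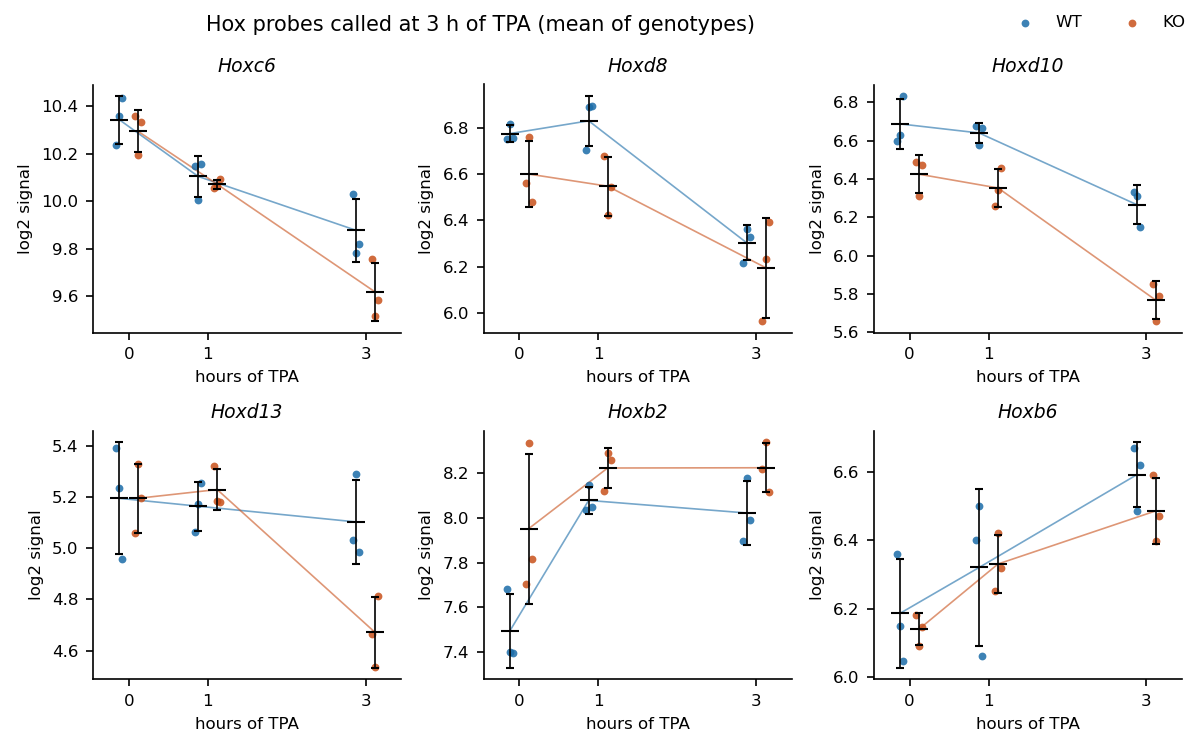
Log2 signal of 6 Hox probes called at 3 h of TPA, drawn against hours of TPA with 1 point per array, the mean of 3 arrays and whiskers of 1 SD; each panel has its own vertical scale that does not start at 0. Hoxc6, Hoxd8 and Hoxd10 fall in both genotypes, Hoxd13 falls in the knockout arrays at 3 h, and Hoxb2 and Hoxb6 lie higher at 3 h than before TPA.

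Within each genotype, 5 Hox probes were called at 3 h in the wild type, 2 higher and 3 lower, against 12.3% of all probes. In the knockout 10 were called, 1 higher and 9 lower, against 14.1% of all probes, 7.39% lower. The higher one in the knockout was Hoxb6. Its call there was lost with no detection filter, with an intensity trend and with either median scaling. The knockout calls that the wild type lacked were Hoxa5 (-0.58 ± 0.10 SE, adjusted p = 0.000164, a fall to 66.8%), Hoxa7 (-0.38 ± 0.10 SE, adjusted p = 0.0123), the Hoxa2 probe ILMN_2618302 (-0.53 ± 0.14 SE, adjusted p = 0.00979), Hoxd13, Hoxb4 and Hoxc9, a gene of thoracic motor neurons (-0.31 ± 0.10 SE, adjusted p = 0.0455). In the wild type the same probes gave -0.07, 0.03, 0.06, -0.09, -0.18 and -0.03, none of them called. The 10 calls fell to 5 without knockout 0 h replicate 2 and to 6 without knockout 0 h replicate 3, and the 5 wild-type calls fell to 3 without wild-type 0 h replicate 2 or replicate 3. A response called in 1 genotype and not in the other is not shown to differ between them, so the difference itself was tested.

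**Figure D5:**
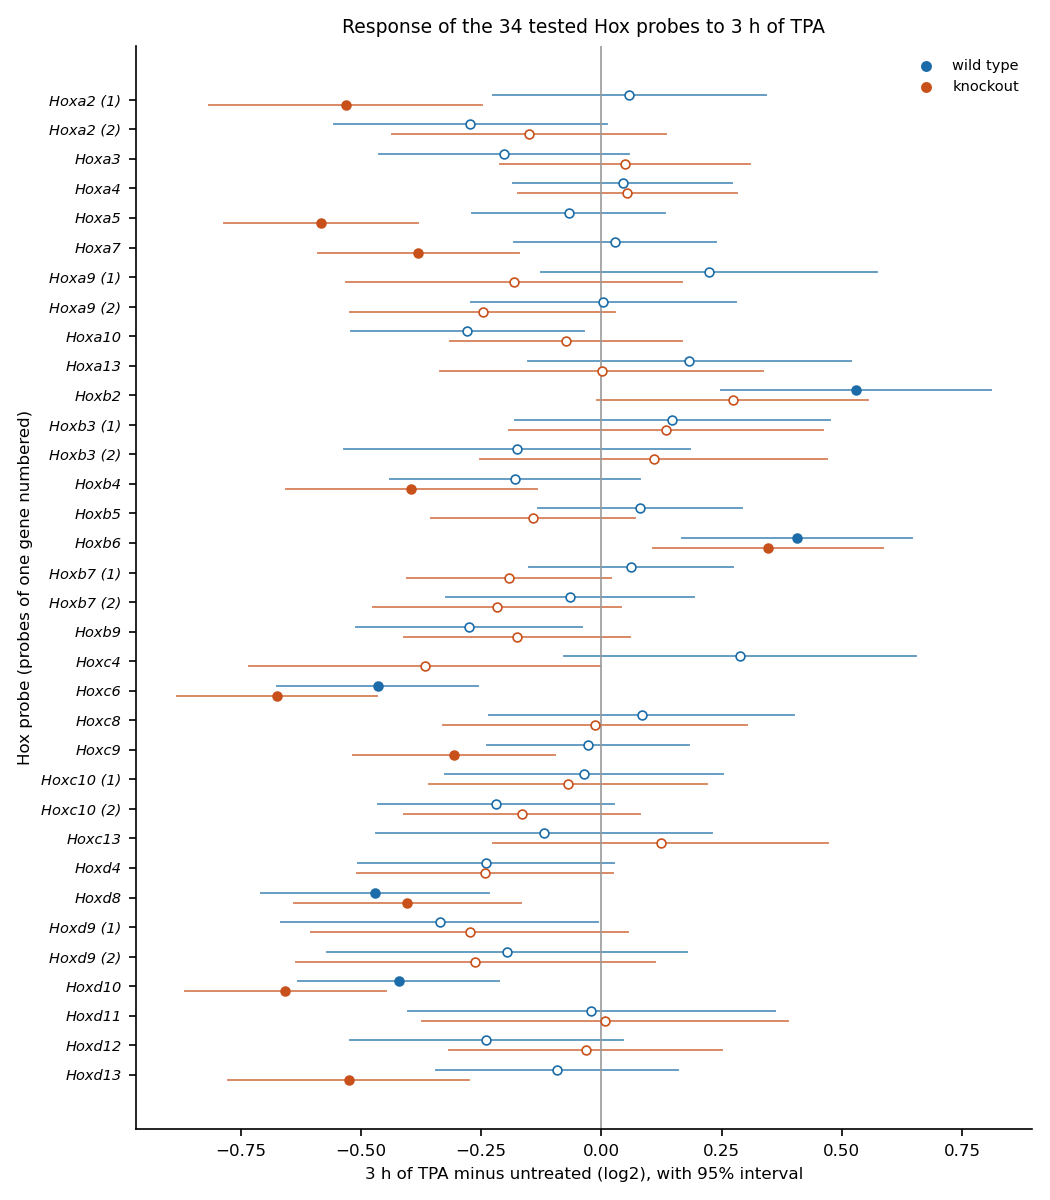
Change from untreated to 3 h of TPA (log2) for the 34 tested Hox probes in cluster order, in the wild type (blue) and the knockout (orange), with 95% intervals and filled points for calls at adjusted p below 0.05. Hoxc6, Hoxd8 and Hoxd10 are filled on the left in both genotypes and Hoxb6 on the right in both, while Hoxa2 (1), Hoxa5, Hoxa7, Hoxb4, Hoxc9 and Hoxd13 are filled in the knockout alone and Hoxb2 in the wild type alone.

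That test called no Hox probe at 3 h, where 0.153% of all probes were called, and none at 1 h, where 0.0148% were. By unadjusted p under 0.05 there were 5 Hox probes at 3 h and 3 at 1 h. The share of all probes under that cut is not given here, so these counts alone show no difference of responses. The 5 at 3 h all had the lower value in the knockout. They were -0.59 for the Hoxa2 probe ILMN_2618302 (95% interval -0.99 to -0.19, adjusted p = 0.344) and -0.51 for Hoxa5 (95% interval -0.80 to -0.23, adjusted p = 0.198). The others were -0.43 for Hoxd13 (95% interval -0.79 to -0.08, adjusted p = 0.486) and -0.41 for Hoxa7 (95% interval -0.71 to -0.11, adjusted p = 0.399), and Hoxc4 at -0.66, whose probe was detected on 4 arrays. With no background correction the Hoxa5 difference was called, at -0.44 (adjusted p = 0.0292), as it was on the log2 values that the authors deposited, at -0.43 (adjusted p = 0.0301). For Hoxd8, which fell in both genotypes, the difference was 0.07 (95% interval -0.27 to 0.40).

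One hour of TPA moved few Hox genes. As the mean of the genotypes Hoxb2 alone was called, at 0.43 ± 0.10 SE, adjusted p = 0.00607, or 135% of the untreated signal, against 6.50% of all probes called. In the wild type it was again the only Hox probe called (0.59 ± 0.14 SE, adjusted p = 0.017), against 2.62% of all probes, and that call was lost without wild-type 0 h replicate 2 or 3 or without 1 h replicate 2. In the knockout none was called, against 4.10% of all probes. There 3 Hox probes had an unadjusted p under 0.05, a cut for which the share of all probes is not given here. Hoxc6 stood at -0.23 as the mean of the genotypes and was not called (adjusted p = 0.0571), although it was under most other filters and variance models, at adjusted p = 0.0442 or less.

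The other tested Hox probes are given by their range over the 18 arrays. Hoxb5, a gene of the shoulder level, ranged from 7.03 to 7.58. Its difference between genotypes was -0.19 (95% interval -0.31 to -0.07, adjusted p = 0.0503), just past the threshold and under it in most other settings, and at 3 h of TPA it was -0.03 (95% interval -0.18 to 0.12). Hoxb9 ranged from 7.21 to 7.73 and differed by -0.03 between genotypes (95% interval -0.16 to 0.11). Hoxc9 ranged from 8.54 to 9.09 and differed by 0.01 between genotypes (95% interval -0.11 to 0.13), so the interval held no fall as large as that of Hoxa9 on either probe. Its untreated knockout arrays, at 8.94, 9.09 and 8.91, lay above the untreated wild-type arrays, at 8.83, 8.75 and 8.74. That difference was not called, and the genotypes overlapped at 1 h and 3 h. The same untreated knockout arrays enter the fall of Hoxc9 with TPA in the knockout, so that fall and the untreated difference are not independent.

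The 2 probes of Hoxc10, a gene of lumbar motor neurons and the hindlimb, ranged from 5.86 to 6.50 and from 5.98 to 6.62. They differed by -0.17 and -0.13 between genotypes and by -0.05 and -0.19 at 3 h of TPA, none of which was called. Hoxb3, a hindbrain gene, ranged from 4.99 to 5.71 on the probe present on all arrays and differed by -0.09 between genotypes (95% interval -0.30 to 0.12) and by -0.03 at 3 h (95% interval -0.29 to 0.22). Hoxa13 ranged from 5.08 to 5.81 and differed by 0.09 at 3 h (95% interval -0.15 to 0.33).

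The probes detected on part of the arrays lay close to background. Hoxd4, which acts at the hindbrain and neck border, ranged from 4.37 to 5.16, with -0.24 at 3 h of TPA (95% interval -0.43 to -0.05, adjusted p = 0.0646) and -0.13 between genotypes. The probes of Hoxd9 ranged from 4.34 to 5.24 and from 4.48 to 5.47, with -0.31 (adjusted p = 0.0571) and -0.23 (adjusted p = 0.228) at 3 h. In other settings Hoxd4 was called at 3 h with array weights (adjusted p = 0.0251). Hoxd9 was called there with the mean of its probes, at -0.27 (adjusted p = 0.0172). Hoxc4 ranged from 4.27 to 5.36, Hoxc13 from 4.34 to 5.16, Hoxd11 from 4.32 to 5.11 and Hoxb3 on its second tested probe from 4.23 to 4.91. Hoxa3, Hoxa10, Hoxc8 and Hoxd12 did not pass 4.88 on any array. None of these probes was called in any of the 12 comparisons in the main setting.

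Genes that work with Hox proteins or control them were counted in the same fit, where a gene with several probes counts as called if any of them was. Of 7 tested genes for Hox cofactors, 3 had a probe called at 3 h of TPA. By probe 4 of 15 were called, or 26.7%, against 21.3% of all probes. Meis2, a homeodomain partner of Hox proteins, fell on both of its probes, by 0.80 and 0.66 on the log2 scale. Pknox2 fell and Pbx2 rose on 1 probe each, at -0.31 and 0.29. Between genotypes Meis2 was lower on 1 of 2 probes at -0.22. It was the only call among the 15 probes, or 6.67%, against 8.22% of all probes.

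Of 26 tested Polycomb genes, which keep Hox genes silent, 10 were called at 3 h, 3 higher and 7 lower, and by probe 12 of 43, or 27.9%, against 21.3% of all probes. Eed, a core subunit of the complex that methylates histone H3 at lysine 27, fell by 0.89, and Rbbp4, a histone-binding subunit, fell by 0.91 on 1 of its 4 probes. Mtf2, an accessory subunit, rose on all 3 probes, by 0.52 to 0.72. Between genotypes Ezh2, the catalytic subunit, was lower at -0.18 on 1 of 2 probes. It was the only call among the 43 Polycomb probes, or 2.33%, against 8.22% of all probes. Of 15 tested trithorax and demethylase genes, which keep Hox genes active, 6 were called at 3 h, 4 higher and 2 lower, and by probe 7 of 25, or 28.0%, against the same 21.3%. Dot1l, a histone methyltransferase, rose by 0.90, Kdm6b, which removes the Polycomb mark, by 0.85 and 0.64 on 2 of 3 probes, and Kmt2a by 0.39 on 1 of 2 probes. Kdm6b was also higher in the knockout on 2 of 3 probes, at 0.44 and 0.30, and Psip1 was lower on both probes, at -0.30 and -0.23, as was Dpy30 on 1 of 2 probes at -0.20. By probe these genotype calls were 5 of 25, or 20%, against the same 8.22%.

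Of 12 tested genes of retinoic acid and axis signals, which set Hox activity in the embryo, 5 were called at 3 h, 2 higher and 3 lower, and by probe 7 of 18, or 38.9%, against 21.3% of all probes. Aldh1a3, which makes retinoic acid, rose by 2.19 and 1.42 on its 2 probes, Egr2, a factor that drives Hoxb2 in the hindbrain, rose by 0.59, and the retinoic acid receptor gene Rarb fell by 0.71 and 0.59 on its 2 probes. Between genotypes 4 of these genes were higher in the knockout and none lower, which by probe is 5 of 18, or 27.8%, against 8.22% of all probes called, 4.09% higher. Among them were Aldh1a3 at 1.17 and 1.16, Egr2 at 0.71 and Rarb at 0.37 on 1 of 2 probes. Of 15 tested position factors other than Hox, 11 were called at 3 h, 3 higher and 8 lower, and by probe 16 of 27, or 59.3%, against 21.3% of all probes. Tbx3, a limb and body wall factor, rose on all 4 probes, by 0.70 to 1.75, Meox1, a somite factor, rose by 0.86, and Tbx15, a factor of the trunk skin and skeleton, fell by 0.50. Between genotypes Tbx4, a hindlimb factor, was lower in the knockout at -0.45 and Tbx3 higher on 2 of 4 probes, at 0.27 and 0.23. By probe this was 3 of 27, or 11.1%, against 8.22% of all probes. The probe medians of the 5 lists lay between -0.07 and 0.04 between genotypes and between -0.03 and 0.15 at 3 h of TPA, where all tested probes stood at -0.01 and 0.00. The calls of Pknox2 and Pbx2 at 3 h and of Meis2, Ezh2 and Dpy30 between genotypes were lost without at least 1 of the arrays. No relation between these genes and the Hox genes was tested.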

How the data were processed

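RNA of 18 samples was hybridised to Illumina bead arrays. The deposited table holds 1 intensity and 1 detection p-value per probe and array, not normalized, per the file headers. The deposited series values of the same arrays are log2 intensities with the same distribution in every array. They were used as an alternative, and how they were made is not given in the sources used here. Probes were named from the platform annotation, which gave 34885 of 45281 probes 1 symbol, 18 several and 10378 none.

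Intensities were background-corrected from the detection p-values (normexp, offset 16), quantile normalized and logged in limma 3.58.1 (R 4.3.3). The 20239 probes with a detection p-value below 0.05 on at least 3 arrays were kept. A linear model of 6 group means with empirical Bayes moderation (12 residual degrees of freedom) gave 12 comparisons, with p-values adjusted by Benjamini-Hochberg over all kept probes of a comparison and intervals at 95%. The probe was the unit, and levels of different probes were not compared. The number of arrays limits the precision. The Hox probes, the gene lists and the markers were chosen with earlier results of these data known. Values in every array are given for the 16 called Hox probes with the smallest adjusted p and for further tested probes of their genes. Of each list up to 3 called genes are named. Same-numbered arrays of different groups were checked for pairing by the correlation of their deviations from group means. Most correlations were 0.1 or less, but 15 of 18 arrays correlated best with their own number. The labels state no pairing, so the numbers were not taken as pairing the arrays, and a fit with them as a block is given below. The code was tested on simulated data. Promoter sequences came from RefSeq. Slide positions were not used here.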

Additional observations from a re-analysis of the deposited data

How the results depend on the processing

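Of the 46 Hox results called over the 12 comparisons, 24 held whichever array was left out, and no result changed direction under any alternative. Leaving out 1 array at a time, the number of Hox probes called at 1 h ranged from 0 to 1 in the wild type, 0 to 1 in the knockout and 1 to 2 as the mean of the genotypes, and at 3 h from 3 to 5, 5 to 10 and 7 to 10. The number differing between genotypes ranged from 0 to 1 at 0 h, 0 to 3 at 1 h, 3 to 7 at 3 h and 6 to 12 over the mean of the times, and for the 2 differences of responses from 0 to 0. Scaling on the median of all probes shifted the centre of all probes and gave 2 and 17 calls at 1 h and 3 h in the wild type, 3 at 1 h in the knockout, 15 and 20 as the mean of the genotypes, and 10, 8 and 19 between genotypes at 0 h, at 1 h and over the mean of the times. Scaling on the median of the kept probes gave 8 calls at 3 h in the wild type, 3 at 1 h as the mean and 1 between genotypes at 0 h. The share of all called probes that were higher moved with this scaling. It went from 56.2% in the main setting to 8.08% with all probes and 72.1% with kept probes at 1 h in the wild type, from 47.6% to 4.77% and 65.5% at 3 h, from 51.1% to 11.6% at 1 h in the knockout and from 47.5% to 28.4% at 3 h. As the mean of the genotypes it went from 46.7% to 4.12% and 70.3% at 1 h and from 46.3% to 8.82% and 60.6% at 3 h. Between genotypes it went from 56.2% to 2.0% and 69.4% at 0 h, from 54.6% to 2.71% at 1 h and from 49.8% to 3.88% and 61.6% over the mean of the times, and for the difference of 3 h responses from 93.5% to 76.9% with kept probes. With no background correction, or on the deposited log2 values, 2 Hox probes were called at 1 h as the mean, 1 between genotypes at 0 h and 1 in the difference of 3 h responses. A detection p-value below 0.01 gave 2 at 1 h as the mean, and no filter gave 2 there and 1 at 1 h in the knockout. The brightest probe of a gene, the mean of its probes, an intensity trend, array weights and, chosen after seeing the data, only probes detected on all 18 arrays each gave 2 at 1 h as the mean and 1 between genotypes at 0 h. Fitting only the arrays compared, with fewer samples, gave 6 at 3 h in the knockout and 0 and 3 between genotypes at 1 h and 3 h. Requiring a change over 1.5-fold left 0 at 3 h in the wild type, 2 in the knockout, 0 and 0 as the mean at 1 h and 3 h, and 0, 3 and 0 between genotypes at 1 h, at 3 h and over the mean of the times. With the replicate number as a block, 2 probes were called at 1 h as the mean and 2 between genotypes at 0 h, Hoxa4 (adjusted p = 0.0454) and a probe of Hoxa2 (adjusted p = 0.0392), and the other counts stayed within 1.5 times. Deviations of same-numbered arrays correlated from -0.07 to 0.41, with 9 of 45 pairs over 0.1, and 15 of 18 arrays correlated best with their own number, a hint from the data and not from the design. A slide block was not run, since slides were not used here. Where counts moved, the cause was not tested beyond the shift of the centre and the smaller fits. Signals near background limit what can be said of Hoxa2, Hoxa4, Hoxa9 and Hoxd13.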
